A study of Mus musculus with 16 samples.

Results

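Inppl1 encodes SHIP2, a phosphatase of the inner plasma membrane, and it was studied here beside 5 other mouse genes for inositol and phosphoinositide phosphatases, Inpp5d, Inpp5a, Inpp5k, Inpp4a and Inpp4b. The 6 genes were taken by name from a table of 48593 genes, and all 6 passed the filter on low counts that left 16606 tested genes. They were named with the differences between each mutant genotype and its own wild type already known, so those differences are given as a description with no p value. The comparisons of homozygous with heterozygous knock-in and of the wild type groups with each other were not used to choose the genes and are tested.

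The sequenced RNA came from germinal centre B cells of mice immunised with sheep red blood cells, sorted from the spleen as B220+, PNA+ and CD95+ cells. The question of the design was what 2 kinds of change in Crebbp, a histone acetyltransferase, do to transcription in these cells. Group KO held 3 libraries from mice homozygous for a germinal centre-specific conditional knockout of Crebbp, and its KO cohort WT held 3 Crebbp wild type libraries. Group RH HET held 4 libraries from mice with 1 knock-in allele (Crebbp-RH/WT), group RH HOMO held 3 libraries with both alleles knocked in (Crebbp-RH/RH), and their RH cohort WT held 3 wild type libraries. The labels do not name the Cre driver, the strain or the ages, and the knock-in allele is spelled R14467H in the series title. The mice were analysed 12 days after immunisation by the growth protocol and 10 days by a sample tag. Whether the libraries of a group are from different mice is not in the labels, and p values therefore cover the spread of libraries, which may be technical.

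SHIP1 and SHIP2 remove the 5-phosphate from PI(3,4,5)P3, the lipid that PI3-kinase makes when the B cell receptor or other receptors are engaged, and leave PI(3,4)P2. The 4-phosphatases INPP4A and INPP4B then turn PI(3,4)P2 into PI(3)P, while other 5-phosphatases act on PI(4,5)P2 or on soluble inositol phosphates. SHIP1, the product of Inpp5d, is the form known from blood cells, where the inhibitory receptor Fc gamma RIIB recruits it to damp B cell receptor signals, and SHIP2 is found in many tissues.

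Library totals ran from 41362856 to 93040297 counted reads. On the first principal component of all tested genes the highest were RH HOMO 2, at 77.1, and RH cohort WT 1, at 50.7. The remaining 14 libraries lay between -40.7 and 24.3. All KO and KO cohort WT libraries lay between -40.7 and -25.6, and all libraries titled as knock-in cohort between -5.78 and 77.1. The title of RH cohort WT 1 places it in the knock-in cohort and its batch tag in the knockout cohort, and it was grouped by title. The mRNA of Crebbp itself did not differ past the threshold of edgeR, with log2 differences of -0.14 ± 0.17 in KO, 0.36 ± 0.16 in RH HET and 0.01 ± 0.17 in RH HOMO (SE, edgeR adjusted p = 0.826, 0.668 and 0.985). In RH HET its libraries lay at 123.8 to 137.7 CPM, above the 91.32 to 122.2 CPM of RH cohort WT, and limma-voom called it there (0.45, adjusted p = 0.0476). Counts over the whole gene check neither a deleted part nor a point mutation. Summed B cell markers were at 6590 to 7730 CPM (counts scaled to library size) in all groups, and T cell markers at 0.74 to 2.92 CPM. Summed germinal centre markers were lower in KO (3040 to 3180 CPM) than in KO cohort WT (3340 to 3490 CPM) and lower in RH HOMO (2240 to 2750 CPM) than in RH cohort WT (2880 to 3250 CPM), without overlap.

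The sequence around the start of 3 members is shown because Inppl1 was the member with the largest difference, Inpp5d its close relative with the opposite sign, and Inpp4a the one with a full cAMP response element, the site bound by the factor CREB after which Crebbp is named. Each window runs from 250 bases before to 50 bases after a RefSeq start on GRCm38.p6, and capitals mark TGACG or its reverse complement CGTCA, the half-site of that element. Inppl1 has a pair of annotated starts on the minus strand, at chr7:101838177-101838476 and chr7:101837775-101838074. The Inpp5d window is at chr1:87620062-87620361 and the second of 3 Inpp4a windows at chr1:37299646-37299945, both on the plus strand.
Inppl1, window 1: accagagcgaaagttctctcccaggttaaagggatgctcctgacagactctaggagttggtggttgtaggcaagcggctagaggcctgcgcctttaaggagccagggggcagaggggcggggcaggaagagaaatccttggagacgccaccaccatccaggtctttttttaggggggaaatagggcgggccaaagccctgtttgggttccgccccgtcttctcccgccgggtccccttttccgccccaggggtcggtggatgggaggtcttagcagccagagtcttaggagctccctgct
Inppl1, window 2: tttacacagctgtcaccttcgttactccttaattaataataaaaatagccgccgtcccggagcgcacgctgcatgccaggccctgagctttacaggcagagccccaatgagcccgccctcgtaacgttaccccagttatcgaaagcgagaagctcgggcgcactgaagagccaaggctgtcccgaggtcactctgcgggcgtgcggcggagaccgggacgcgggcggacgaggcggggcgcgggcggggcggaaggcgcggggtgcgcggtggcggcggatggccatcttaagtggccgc
Inpp5d: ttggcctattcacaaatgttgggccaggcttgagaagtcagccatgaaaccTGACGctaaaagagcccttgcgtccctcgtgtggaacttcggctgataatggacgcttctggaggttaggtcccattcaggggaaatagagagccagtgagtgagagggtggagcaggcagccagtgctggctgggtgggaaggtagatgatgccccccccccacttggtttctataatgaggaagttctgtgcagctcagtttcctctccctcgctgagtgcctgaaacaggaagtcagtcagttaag
Inpp4a, window 2: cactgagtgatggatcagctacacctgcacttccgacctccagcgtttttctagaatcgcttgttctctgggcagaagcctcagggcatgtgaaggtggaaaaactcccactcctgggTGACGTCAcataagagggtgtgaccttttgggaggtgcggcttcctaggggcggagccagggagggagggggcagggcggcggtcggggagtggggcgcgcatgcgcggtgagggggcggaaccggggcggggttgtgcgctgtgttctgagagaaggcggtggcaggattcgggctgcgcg

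Neither Inppl1 window held the half-site on either strand. The Inpp5d window held 1 half-site, 199 bases before the start, and the Inpp4a window held the whole element TGACGTCA, which contains the half-site on both strands. Among 32851 RefSeq promoter windows of the same length, 1.79% held TGACGTCA and 20.8% held a half-site. The first Inpp4a window overlaps the second and holds the same element, the second of the Inpp5a windows held 1 half-site, and the windows of Inpp5k and Inpp4b held none. These matches describe the letters of the windows, were searched after the windows had been seen, and no binding was measured.

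The lead observation was on Inppl1 (ENSMUSG00000032737.13, chromosome 7, 101822632 to 101838229 on the minus strand, GRCm38). KO libraries had 88.88, 76.74 and 64.1 CPM, against 24.63, 24.5 and 27.07 CPM in KO cohort WT libraries. The lowest KO library was above all 13 other libraries of the study. KO averaged 76.6 ± 12.4 CPM and KO cohort WT 25.4 ± 1.45 CPM (SD, n = 3 each), a log2 difference of 1.59 ± 0.15 (SE) or 3.01-fold. These values rest on 3356 to 4911 reads per KO library and 1189 to 2318 reads per KO cohort WT library.

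In RH HET libraries Inppl1 was at 37.71, 37.3, 37.98 and 28.54 CPM, in RH HOMO libraries at 41.98, 31.55 and 44.71 CPM, and in RH cohort WT libraries at 28.06, 24.73 and 27.76 CPM. Every heterozygous and homozygous library was above every wild type library of either cohort, but RH HET 4 cleared the highest of them by less than 1 CPM. RH HET averaged 35.4 ± 4.57 CPM (SD, n = 4), RH HOMO 39.4 ± 6.95 CPM and RH cohort WT 26.9 ± 1.84 CPM (SD, n = 3 each). The log2 difference from RH cohort WT was 0.40 ± 0.14 (SE) in RH HET, or 1.32-fold, and 0.55 ± 0.15 in RH HOMO, or 1.47-fold. Without RH cohort WT 1 and RH HOMO 2 the differences were 0.44 in RH HET and 0.72 in RH HOMO.

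The direction of Inppl1 was thus the same in the 3 mutant groups, with unequal size. The difference in RH HOMO was smaller than that in KO by 1.04 on the log2 scale, with a difference of effects of -1.04 ± 0.21 (SE). Homozygous and heterozygous libraries overlapped, and RH HOMO exceeded RH HET by 0.15 ± 0.13 (SE), which missed the threshold (edgeR adjusted p = 0.657 over all genes). The wild type groups were close, with 0.08 ± 0.15 for RH cohort WT minus KO cohort WT (SE, edgeR adjusted p = 0.779). A gap in cohort between KO and the knock-in genotypes cannot be told apart from the kind of mutation.

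**Figure D1:**
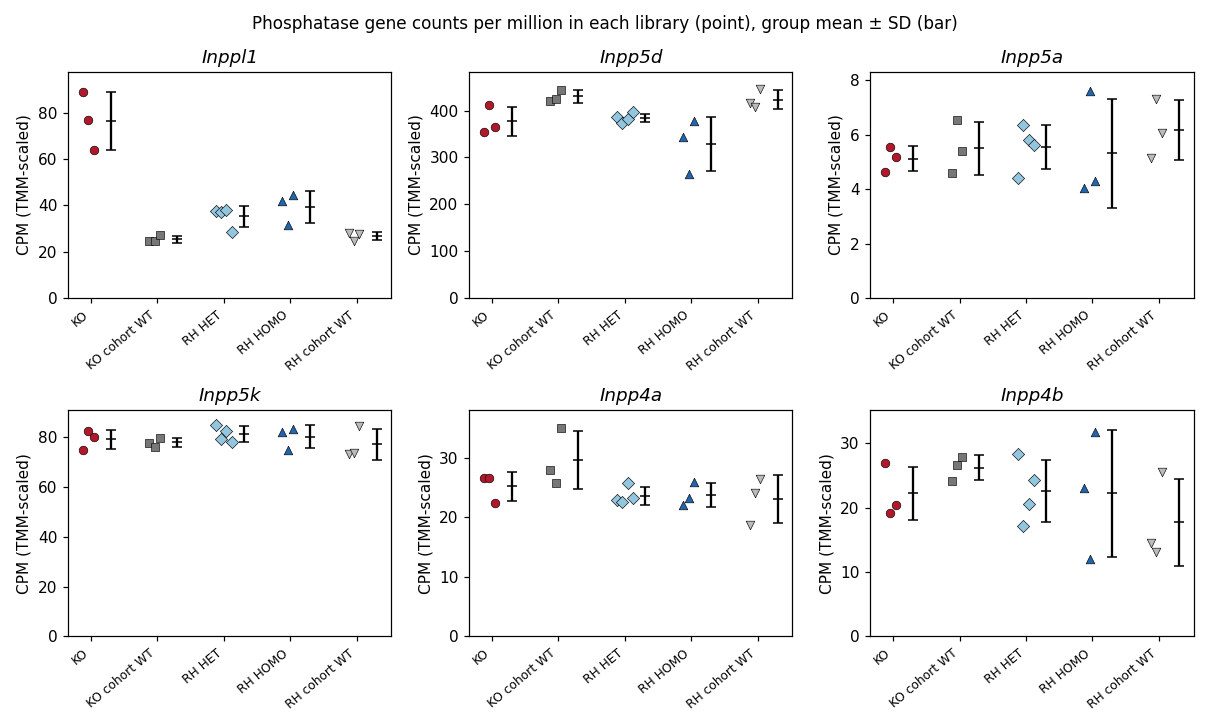
CPM of the 6 phosphatase genes by group, with 1 point per library and the group mean ± SD beside the points, on axes that start at 0. Inppl1 lies between 64.1 and 88.88 CPM in KO and between 24.5 and 27.07 CPM in KO cohort WT, while the points of Inpp5k lie between 73.19 and 85.15 CPM in all groups.

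Inpp5d (ENSMUSG00000026288.14, chromosome 1, 87620312 to 87720507 on the plus strand) had the opposite sign. KO libraries had 354.8, 412.4 and 364.2 CPM, against 420.3, 424.8 and 444.8 CPM in KO cohort WT libraries. RH HET libraries had 385.4, 373.9, 381.3 and 395.9 CPM and RH HOMO libraries 342.7, 264.2 and 378.3 CPM, against 417, 407.1 and 446.1 CPM in RH cohort WT libraries. In each of the 3 pairs every mutant library was below every library of its own wild type, though KO 2 was above 1 library of RH cohort WT. The gene for SHIP1 was thus the one other member whose mutant and wild type libraries were separate.

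The distances were small beside those of Inppl1. The log2 difference of Inpp5d was -0.19 ± 0.11 in KO, -0.14 ± 0.10 in RH HET and -0.37 ± 0.11 in RH HOMO (SE), which are 0.877-fold, 0.907-fold and 0.776-fold. The RH HOMO value depended on RH HOMO 2, the library that stood apart, and was -0.24 without it and RH cohort WT 1. Leaving out 1 library gave -0.23 without RH HOMO 2 to -0.49 without RH HOMO 3. The homozygous minus heterozygous difference was -0.23 ± 0.10 (SE, edgeR adjusted p = 0.427). The wild type groups differed by -0.02 ± 0.11 (RH cohort WT minus KO cohort WT, SE, edgeR adjusted p = 0.926). In bulk RNA, fewer cells of a type and less RNA per cell cannot be told apart, so a lower Inpp5d or higher Inppl1 level is a property of the sorted population.

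The remaining 5-phosphatase members showed no separation between groups. Inpp5k, which encodes SKIP, a 5-phosphatase that acts on PI(4,5)P2 and PI(3,4,5)P3 (ENSMUSG00000006127.9, chromosome 11, 75630988 to 75648871 on the plus strand), averaged 79.3 ± 3.8 CPM in KO and 78.0 ± 1.78 CPM in KO cohort WT (SD, n = 3 each). It averaged 81.3 ± 3.18 CPM in RH HET (n = 4), 80.3 ± 4.63 CPM in RH HOMO and 77.2 ± 6.33 CPM in RH cohort WT (SD, n = 3 each). Its log2 differences from wild type of 0.02 ± 0.08, 0.07 ± 0.08 and 0.06 ± 0.08 (SE) in KO, RH HET and RH HOMO had the smallest errors of the 6 members. Its libraries overlapped in every pair of groups.

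Inpp5a, whose product removes the 5-phosphate from the soluble messenger inositol trisphosphate (ENSMUSG00000025477.14, chromosome 7, 139389109 to 139579652 on the plus strand), was the member with the fewest reads, 196 to 617 per library. It averaged 5.12 ± 0.467 CPM in KO and 5.50 ± 0.967 CPM in KO cohort WT (SD, n = 3 each). RH HET averaged 5.55 ± 0.817 CPM (SD, n = 4), RH HOMO 5.31 ± 2.0 CPM and RH cohort WT 6.18 ± 1.1 CPM (SD, n = 3 each). RH HOMO 2 was the highest library of the study for this gene, at 7.62 CPM, with the other RH HOMO libraries at 4.029 and 4.286 CPM. The log2 differences from wild type were -0.11 ± 0.23, -0.16 ± 0.21 and -0.22 ± 0.23 (SE) in KO, RH HET and RH HOMO, and the last was -0.69 without RH HOMO 2 and RH cohort WT 1.

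For the 4-phosphatase genes the largest differences lay between the wild type groups. Inpp4a (ENSMUSG00000026113.17, chromosome 1, 37299865 to 37410736 on the plus strand) had 26.6, 26.56 and 22.31 CPM in KO libraries, against 27.86, 25.81 and 35.01 CPM in KO cohort WT libraries. It averaged 23.6 ± 1.49 CPM in RH HET (SD, n = 4), 23.7 ± 1.96 CPM in RH HOMO and 23.0 ± 4.02 CPM in RH cohort WT (SD, n = 3 each). The log2 differences from wild type were -0.23 ± 0.14, 0.03 ± 0.13 and 0.04 ± 0.14 (SE) in KO, RH HET and RH HOMO. Between the wild type groups Inpp4a differed by -0.36 ± 0.14 (RH cohort WT minus KO cohort WT, SE), which did not pass the test (edgeR adjusted p = 0.118).

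Inpp4b, which lies on chromosome 8 (ENSMUSG00000037940.17, 81342556 to 82127914 on the plus strand) and encodes a 4-phosphatase known as a tumour suppressor in epithelial tissues, had the largest errors of the 6. RH HOMO libraries had 23.01, 12.03 and 31.75 CPM, RH HET libraries 28.36, 17.09, 20.61 and 24.36 CPM, and RH cohort WT libraries 14.57, 13.17 and 25.49 CPM. KO libraries had 27, 19.25 and 20.4 CPM, against 24.09, 26.72 and 27.93 CPM in KO cohort WT libraries. All groups overlapped their own wild type for Inpp4b. Its log2 differences from wild type were -0.24 ± 0.29, 0.35 ± 0.27 and 0.32 ± 0.29 (SE) in KO, RH HET and RH HOMO, and -0.56 ± 0.29 for RH cohort WT minus KO cohort WT (SE, edgeR adjusted p = 0.23).

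**Figure D2:**
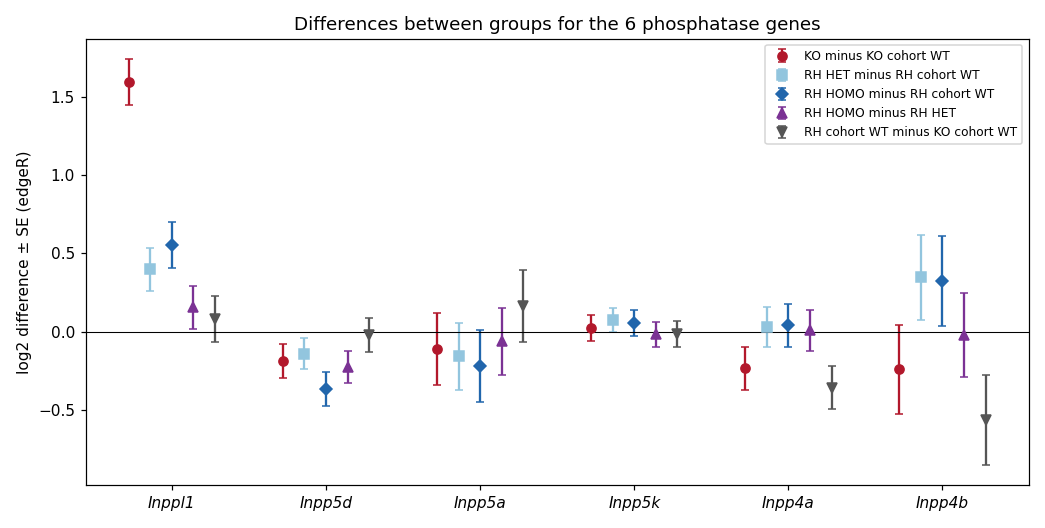
Log2 differences ± SE of the 6 genes in 5 comparisons from the edgeR fit, in CPM scaled by TMM. The KO point of Inppl1 at 1.59 stands above all others, the 3 mutant points of Inpp5d lie below 0, and the lowest point is Inpp4b in RH cohort WT minus KO cohort WT at -0.56.

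Counted over the 6 members, 1 was called higher in KO at an adjusted p under 0.05, Inppl1, and 0 were called lower. Over all tested genes 0.572% were higher and 0.729% lower in KO, 1.3% in either direction. In RH HET 0 members were called, where 0.012% of all genes were higher and 0.00602% lower, 0.0181% in all. In RH HOMO 0 members were called, where 0.578% were higher and 0.994% lower, 1.57% in all. The RH HOMO count was unsteady, since Inppl1 and Inpp5d were both called there by DESeq2, Inppl1, Inpp5d and Inpp5a by limma-voom, Inppl1 alone without RH HOMO 2, and Inpp5d alone without RH HOMO 3. Libraries did not overlap for Inppl1 (higher) and Inpp5d (lower) in each of KO, RH HET and RH HOMO, 1 member each way. The share of all tested genes without overlap was 12.7% higher and 12.7% lower in KO (25.4% in all), 2.97% higher and 3.52% lower in RH HET (6.49%), and 7.39% higher and 8.03% lower in RH HOMO (15.4%). Because the members were named with these contrasts in view, nothing is read from their counts.

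In the comparisons that were not named in the choice, 0 of 6 members were called by edgeR. For RH HOMO minus RH HET 0% of genes were called and 8.06% did not overlap, 3.78% of them higher and 4.28% lower as shares of all genes. No member was among these, and of the members Inpp5d had the lowest unadjusted p at 0.0391. For RH cohort WT minus KO cohort WT 5.06% of genes were called (3.17% higher, 1.88% lower) and 34.2% did not overlap (17.4% higher, 16.8% lower), again with no member among them, and Inpp4a had the lowest unadjusted p at 0.0182. Of all tested genes, 1889 and 4237 had an unadjusted p under 0.05 in these 2 comparisons. DESeq2 called no member in either, and limma-voom called Inpp4b alone between the wild type groups.

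Levels were compared between genes per length, as CPM per kb of merged exons. The order was the same in all 5 groups, with Inpp5d highest, then Inpp5k, Inppl1, Inpp4a, Inpp4b and Inpp5a. In KO the means were 49.6, 13.9, 12.0, 2.42, 1.70 and 0.906 CPM per kb in that order, and in KO cohort WT they were 56.6, 13.6, 3.97, 2.85, 2.01 and 0.974 CPM per kb. Per kb of merged exons Inppl1 in KO reached the level of Inpp5k, and the libraries of the pair overlapped there and in no other group. This depended on the length used. Per kb of the longest transcript Inppl1 had 17.79, 15.36 and 12.83 CPM in KO libraries. Inpp5k had 22.21, 24.4 and 23.75 CPM there, without overlap. The mRNA for SHIP1 was the most abundant in each library. In RH HET Inpp4a overlapped Inpp4b, and in RH HOMO and RH cohort WT Inpp4b also overlapped Inpp5a, so those neighbours in the order were not separate beyond their spread. With the longest transcript in place of merged exons the order of the means over all libraries was the same, at 78.7, 23.5, 8.09, 4.38, 2.76 and 1.96 CPM per kb.

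Set against SHIP1 within a library, the SHIP2 message showed the same groups with less overlap. Inppl1 per kb was 29.8, 22.1 and 20.9% of Inpp5d per kb in KO libraries, against 6.96, 6.85 and 7.23% in KO cohort WT libraries. It was 11.6, 11.9, 11.8 and 8.56% in RH HET libraries and 14.6, 14.2 and 14% in RH HOMO libraries, against 7.99, 7.22 and 7.39% in RH cohort WT libraries. KO, RH HOMO and RH HET libraries did not overlap each other or either wild type group, and RH HOMO 2 was not apart from its group on this ratio. Group means were 24.3 ± 4.8% in KO, 11 ± 1.61% in RH HET (n = 4), 14.3 ± 0.264% in RH HOMO, 7.53 ± 0.408% in RH cohort WT and 7.01 ± 0.194% in KO cohort WT (SD, n = 3 except RH HET). The ratio uses the values that chose the genes and is given with no test. Even in KO the SHIP1 message stayed the larger of the pair in every library.

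**Figure D3:**
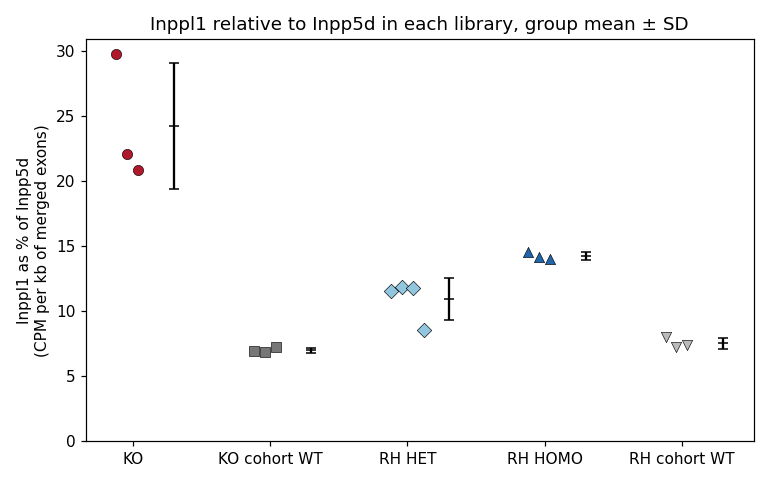
Inppl1 as a percentage of Inpp5d in CPM per kb of merged exons, 1 point per library, with group mean ± SD. KO libraries lie between 20.9 and 29.8%, RH HOMO between 14 and 14.6%, RH HET between 8.56 and 11.9%, and all wild type libraries between 6.85 and 7.99%.

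Across the 16 libraries the members did not form 1 pattern. The correlation of log2 CPM between Inppl1 and Inpp5d was -0.291 over all libraries and 0.49 after each group's mean was taken out. Inpp5a was negative with 4 of the 5 other members within groups, at -0.674 with Inpp4b, -0.582 with Inppl1, -0.577 with Inpp5d and -0.404 with Inpp5k. Inpp5d and Inpp4b had the highest within-group value, 0.714. These values rested in large part on RH HOMO 2. Without it the correlation of Inppl1 with Inpp5d was -0.619 over all remaining libraries and -0.00495 within groups. That of Inpp5d with Inpp4b was 0.367 within groups. Inpp5a was then at -0.362 with Inpp4b, -0.281 with Inppl1, 0.105 with Inpp5d and -0.0968 with Inpp5k within groups. Other pairs changed less, with Inpp5d and Inpp5k at 0.689 with it and 0.612 without it. Inpp5k and Inpp4b were at 0.643 and 0.498. These correlations are descriptions over libraries that differ in group, cohort and depth.

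Genes most like Inppl1 were sought among 10151 genes whose mean log2 CPM was 2 or more. Among the 5 closest by correlation of log2 CPM over the 16 libraries were Ptpn9, a tyrosine phosphatase (r = 0.922), Dzip1 (r = 0.887), Adgrl2, an adhesion receptor (r = 0.885), and Vwa5a (r = 0.883). Ptpn9 averaged 30.4 ± 2.69 CPM in KO, 13.0 ± 0.523 CPM in KO cohort WT, 18.2 ± 1.9 CPM in RH HET, 21.4 ± 2.59 CPM in RH HOMO and 15.5 ± 1.65 CPM in RH cohort WT (SD, n = 3, 4 in RH HET), the same order of groups as Inppl1. The most opposite were Gmfg, a regulator of actin branching (r = -0.901), Sp140, a nuclear body protein (r = -0.897), Lgmn, a lysosomal protease (r = -0.896), Bzw2 (r = -0.895) and Nap1l1, a histone chaperone (r = -0.893). With group means taken out, r was 0.293 for Ptpn9 and 0.703 for Vwa5a, and -0.764 for Gmfg and -0.011 for Sp140. Without RH HOMO 2 it was -0.0189 for Ptpn9, 0.505 for Vwa5a, -0.644 for Gmfg and -0.0388 for Sp140. For Inpp5d the closest were Dnmbp (r = 0.948), Ralgds (r = 0.946) and Rapgef1 (r = 0.931), 3 genes for exchange factors of small GTPases, and with group means taken out r was 0.956, 0.92 and 0.907. RH HOMO 2 was the lowest library for Inpp5d and for all 3, and without it these values were 0.839, 0.753 and 0.683.

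Pde2a was the called gene in the genomic surroundings of Inppl1. Of 23 tested genes within 500 kb, 0 were called higher and 1 lower in KO, where 0.572% and 0.729% of all tested genes were, and their median log2 difference was -0.10, against 0.00 over all genes. Pde2a encodes a phosphodiesterase of cyclic AMP and cyclic GMP, and its start lies at -416.5 kb from that of Inppl1 along the chromosome. Pde2a had 9.538, 11.92 and 17.07 CPM in KO libraries, against 39.31, 33.7 and 42.15 CPM in KO cohort WT libraries, and fell by 1.58 ± 0.23 on the log2 scale (SE, edgeR adjusted p = 0.00203). It had 22.12, 18.26 and 19.1 CPM in RH HOMO libraries, against 32.05, 49.35 and 59.27 CPM in RH cohort WT libraries, and fell by 1.24 ± 0.22 (SE, edgeR adjusted p = 0.00769). In RH HET it was at -0.69 ± 0.20 (SE, edgeR adjusted p = 0.416). Folr2, at 18.96 kb, had the highest value in KO, 1.76 ± 0.84 (SE), and did not pass the test (edgeR adjusted p = 0.41).

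Pde2a was thus opposite in sign to Inppl1 in each genotype, and both comparisons with KO and RH HOMO kept its call without any 1 of the 16 libraries. In a fit that left out the other 3 groups, the RH HOMO difference of Pde2a was not called (edgeR adjusted p = 0.0997). The neighbours of the other 5 members, 8 of Inpp5d, 6 of Inpp5a, 26 of Inpp5k, 13 of Inpp4a and 2 of Inpp4b, held 0 called genes in KO, RH HET and RH HOMO. Between the wild type groups 2 neighbours of Inppl1 were higher in RH cohort WT, Clpb (0.55, edgeR adjusted p = 0.0368) and Lamtor1 (0.39, edgeR adjusted p = 0.038), and 2 of Inpp5k, Dph1 (0.55, edgeR adjusted p = 0.0119) and Ovca2 (0.42, edgeR adjusted p = 0.0472), where 3.17% of all tested genes were called higher. Each of these 4 lost its call without any 1 of KO cohort WT 1, KO cohort WT 2 and RH cohort WT 2 (edgeR adjusted p = 0.0555 to 0.156). With RH cohort WT 1 placed in KO cohort WT, as its batch tag says, they were at 0.23, 0.33, 0.36 and 0.17 for Clpb, Lamtor1, Dph1 and Ovca2, and none was called (edgeR adjusted p = 0.654 to 0.815). Phox2a overlaps the end of Inppl1 on the other strand and had 0 to 14 reads per library, against at least 1071 for Inppl1. The antisense gene Gm10602 overlaps its start and was not among the 48593 gene symbols counted, and strand is not kept by the library kit.

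**Figure D4:**
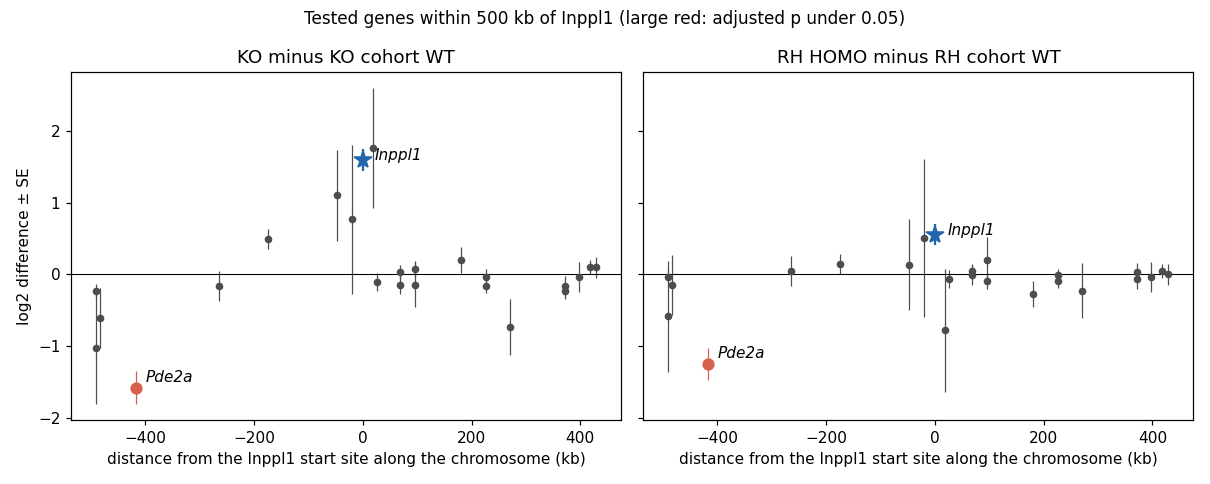
Log2 difference ± SE of the 23 tested genes that start within 500 kb of the Inppl1 gene span. The horizontal axis is distance from the Inppl1 start along the chromosome in kb, with Inppl1 as a star. In KO (left) and RH HOMO (right) Pde2a, in large red, is the 1 neighbour called, at -1.58 and -1.24.

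Around the members, 127 other genes of phosphoinositide metabolism and PI3-kinase signalling were in the table and 124 were tested. In KO 2 of the 124 rose and 0 fell, where 1.3% of all tested genes were called. An unadjusted edgeR p under 0.05 was held by 22 of the 124 and by 2012 of the 16606 tested genes. The median log2 difference of the 124 was 0.00, as was that of all genes, and 63 were positive. The called genes were Plekha1 and Fcgr2b.

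Plekha1 encodes TAPP1, an adaptor that binds PI(3,4)P2, the product of SHIP1 and SHIP2. KO libraries had 41.43, 33.34 and 33.54 CPM, against 26.86, 23.24 and 25.55 CPM in KO cohort WT libraries, a rise of 0.52 ± 0.11 on the log2 scale (SE, edgeR adjusted p = 0.0233). The call was lost without KO 1 (edgeR adjusted p = 0.132) and without any 1 of the KO cohort WT libraries (edgeR adjusted p = 0.0612 to 0.129). In RH HET and RH HOMO libraries Plekha1 lay between 17.26 and 21.54 CPM, against 15.93 to 17.34 CPM in RH cohort WT. The wild types themselves differed, with Plekha1 lower in RH cohort WT than in KO cohort WT by -0.60 ± 0.11 (log2, SE, edgeR adjusted p = 0.0119).

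Fcgr2b, the gene for the receptor that recruits SHIP1, was called higher in both homozygous genotypes. KO libraries had 228, 216.1 and 233.4 CPM, against 173.4, 179.6 and 178.6 CPM in KO cohort WT libraries. RH HET libraries had 225.3, 219.1, 226 and 216.4 CPM and RH HOMO libraries 259.8, 313.6 and 279.5 CPM, against 166.5, 159.8 and 166.4 CPM in RH cohort WT libraries. No mutant library overlapped a wild type library of either cohort. Fcgr2b rose by 0.35 ± 0.08 in KO (log2, SE, edgeR adjusted p = 0.0301) and by 0.79 ± 0.08 in RH HOMO (edgeR adjusted p = 0.000151), and was 0.43 ± 0.07 higher in RH HET without passing the test (edgeR adjusted p = 0.0578). In RH HET it was called by DESeq2 (adjusted p = 5.71e-06) and limma-voom (0.00136), and by edgeR with a 1 CPM filter (0.044), against all 6 wild types (0.0411) and without RH HOMO 2 and RH cohort WT 1 (0.0235). The KO call was lost without any 1 of the 6 KO and KO cohort WT libraries (edgeR adjusted p = 0.0547 to 0.128), and the RH HOMO call when those groups were fitted alone (edgeR adjusted p = 0.0714).

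Set beside Inppl1, Fcgr2b had its largest difference in RH HOMO and Inppl1 in KO. RH HOMO minus RH HET gave 0.36 ± 0.07 for Fcgr2b (log2, SE, edgeR adjusted p = 0.108), which DESeq2 called at an adjusted p of 0.00099 and limma-voom at 0.0428. Fcgr2b is also expressed by macrophages and follicular dendritic cells. Summed macrophage and monocyte markers were at 13.7 to 17.1 CPM in KO, 13.9 to 17.8 CPM in KO cohort WT, 18.5 to 29 CPM in RH HOMO and 15.8 to 22.6 CPM in RH cohort WT, overlapping in each pair. Of 6 stromal and follicular dendritic markers in the table, 1 was at 0 in every library, and their sum was at 42.5 to 46.4 CPM in KO, against 48.1 to 60.3 CPM in KO cohort WT. In RH HOMO that sum was at 60.4 to 64.4 CPM, against 52.5 to 72.3 CPM in RH cohort WT. The part of these cells in the Fcgr2b difference was not tested.

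In RH HOMO 1 of the 124 rose and 2 fell, where 1.57% of all genes were called. Besides Fcgr2b these were Mtmr14, a 3-phosphatase of PI(3)P and PI(3,5)P2, and Pip5k1c, a kinase that makes PI(4,5)P2. Mtmr14 had 274.1, 244 and 241.2 CPM in RH HOMO libraries, against 347.8, 337.1 and 328.8 CPM in RH cohort WT libraries, and fell by 0.42 ± 0.08 (log2, SE, edgeR adjusted p = 0.0113). Pip5k1c had 193.4, 196.6 and 210.7 CPM in RH HOMO libraries, against 252.3, 273.5 and 270.3 CPM in RH cohort WT libraries, and fell by 0.41 ± 0.10 (log2, SE, edgeR adjusted p = 0.0431). Groups did not overlap for either gene, and RH HET libraries lay between for Mtmr14, at 284 to 306.9 CPM. Without RH cohort WT 1 and RH HOMO 2 neither was called, at -0.37 for Mtmr14 (edgeR adjusted p = 0.0546) and -0.43 for Pip5k1c (edgeR adjusted p = 0.101). Pip5k1c kept its call in 4 of 16 fits that each left out 1 library, and lost it without any 1 of the RH HOMO 1, RH HOMO 2 and RH cohort WT libraries (edgeR adjusted p = 0.0721 to 0.155). Mtmr14 kept its call in all 16.

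**Figure D5:**
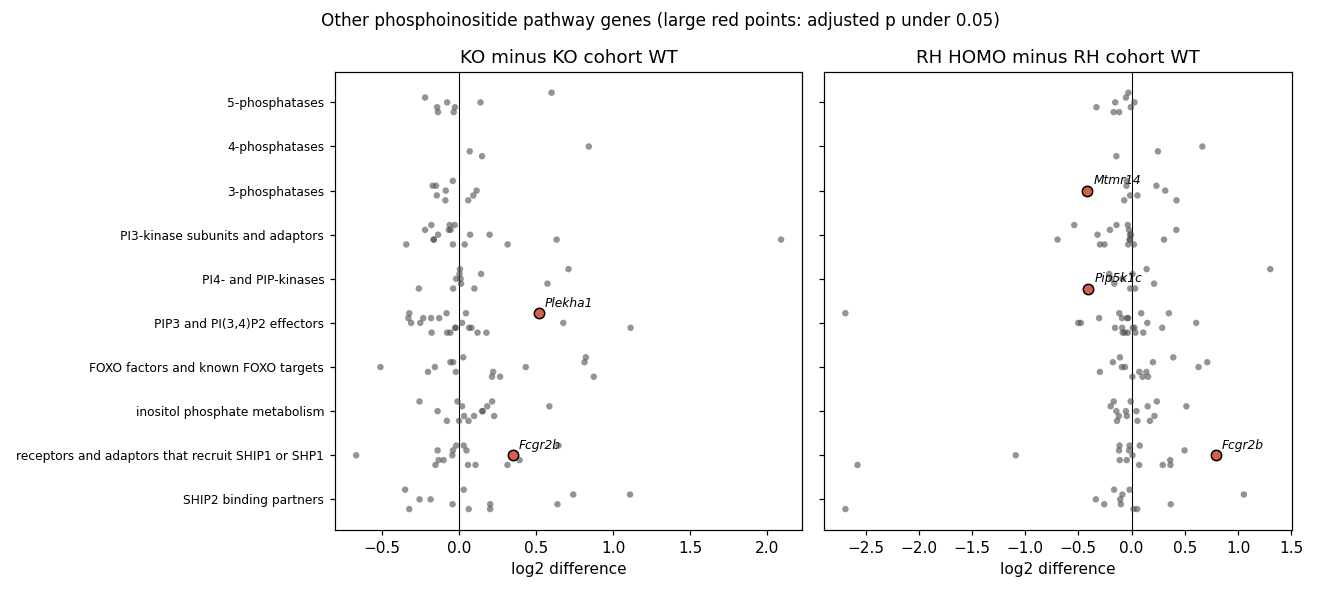
Log2 differences of the 124 tested genes of the surrounding pathway by list, in KO (left) and RH HOMO (right), 1 point per gene, with genes called at an adjusted p under 0.05 in large red. Plekha1 and Fcgr2b stand out in KO, and Fcgr2b, Mtmr14 and Pip5k1c in RH HOMO.

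By role, the list of other 5-phosphatases, which also holds Sacm1l, a phosphatase of PI(4)P, had 0 calls by edgeR among 8 tested genes in each genotype. Ocrl, the phosphatase mutated in human Lowe syndrome, was nearest in KO, at 0.60 ± 0.24 (SE, edgeR adjusted p = 0.285), and Inpp5b, its relative, in RH HOMO, at -0.33 ± 0.12 (SE, edgeR adjusted p = 0.22), and was called lower there against all 6 wild types (-0.41, edgeR adjusted p = 0.0484). The list of 4-phosphatases had 3 tested genes beside the members, 1 of them the inositol 1-phosphatase gene Inpp1, and 0 calls by edgeR. Pip4p2, which acts on PI(4,5)P2, was at 0.84 ± 0.24 in KO (SE, edgeR adjusted p = 0.104) on levels of 3.39 ± 0.249 CPM in KO and 1.89 ± 0.236 CPM in KO cohort WT (SD, n = 3 each). Pip4p2 was called higher in KO by DESeq2 (adjusted p = 0.0278) and limma-voom (0.022), and by edgeR in the compared libraries alone (0.0412), with RH cohort WT 1 in KO cohort WT (0.0458) and without RH HOMO 2 and RH cohort WT 1 (0.0453). It was also called higher in RH HOMO against all 6 wild types (0.84, edgeR adjusted p = 0.0329). Of 9 tested 3-phosphatases Mtmr14 in RH HOMO was the 1 call by edgeR.

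The kinase side held few calls by edgeR and more by the other tools. Of 17 tested PI3-kinase subunit and adaptor genes edgeR called 0 in any genotype, and Pik3c2b, a class II PI3-kinase, was at -0.54 ± 0.15 in RH HOMO (SE, edgeR adjusted p = 0.0768). DESeq2 and limma-voom called Pik3c2b lower there (adjusted p = 0.0173 and 0.00578), as did edgeR with no count filter (0.0241), against all 6 wild types (0.0121) and without RH HOMO 2 and RH cohort WT 1 (0.0347). Of 11 PI4- and PIP-kinase genes Pip5k1c in RH HOMO was the 1 call by edgeR, and Pi4k2b was at 0.57 ± 0.15 in KO (SE, edgeR adjusted p = 0.0849). Pi4k2b was called higher in KO by DESeq2 (adjusted p = 0.0148) and limma-voom (0.00879), and by edgeR in the compared libraries alone (0.0282), against all wild types (0.0252), with RH cohort WT 1 in KO cohort WT (0.0276) and without RH HOMO 2 and RH cohort WT 1 (0.0316). The 22 effectors of PI(3,4,5)P3 and PI(3,4)P2 gave Plekha1 in KO, and the 16 receptors and adaptors that recruit SHIP1 or SHP1 gave Fcgr2b, both by edgeR. Among 14 tested genes for FOXO factors, which PI3-kinase signalling holds out of the nucleus, and their known targets, edgeR called 0, with Irs2, an adaptor of the insulin receptor, at -0.51 ± 0.15 in KO (SE, edgeR adjusted p = 0.125). Irs2 was called lower in KO by DESeq2 (adjusted p = 0.0392), by limma-voom (0.0278) and by edgeR in the compared libraries alone (0.0301). Cdkn1b, the gene for the cell cycle inhibitor p27, was called higher in RH HOMO by DESeq2 (adjusted p = 0.0432), by limma-voom (0.0148) and by edgeR with no count filter (0.0281). Of 12 genes for binding partners of SHIP2 edgeR called 0, and Bcar1, a scaffold of focal adhesions, was at 0.64 ± 0.22 in KO (SE, edgeR adjusted p = 0.193) and 0.72 ± 0.20 in RH HET (SE, edgeR adjusted p = 0.394), where limma-voom called it (0.83, adjusted p = 0.0465). The 15 genes of inositol phosphate metabolism also held 0 calls by edgeR.

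In RH HET edgeR called 0 of the 124 genes, DESeq2 1 and limma-voom 5, where DESeq2 called 50 and limma-voom 244 of all genes. Before adjustment 13 of the 124 had an edgeR p under 0.05, as did 1192 of all tested genes. Of the 124, 86 were positive in RH HET, with a median of 0.07 against -0.01 over all genes. The FOXO list had 14 of 14 positive there, with a median of 0.21. Without RH cohort WT 1 these were 80 of 124 with a median of 0.04, against 0.01 over all genes, and 12 of 14 with a median of 0.08. The mitochondrial share of counts was 7.34 and 7.15% in RH cohort WT 1 and RH cohort WT 2, with the other libraries between 3.43 and 5.84%, and its part in these differences was not tested. RH HOMO minus RH HET also held 0 calls, with 17 at an unadjusted p under 0.05 and 2 calls each by DESeq2 and limma-voom, and 33 of 124 were positive, with a median of -0.10 against 0.02 over all genes. Without RH HOMO 2 they were 48 of 124, with a median of -0.03. Both comparisons use RH HET.

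Between the wild type groups 1 of the 124 was higher and 4 lower in RH cohort WT than in KO cohort WT, where 5.06% of all genes were called. Dok3, an adaptor that binds SHIP1, was 0.58 ± 0.16 higher (log2, SE, edgeR adjusted p = 0.0439). Plekha1, Mtmr7 (-1.51 ± 0.35, edgeR adjusted p = 0.0281), Pikfyve (-0.54 ± 0.14, edgeR adjusted p = 0.0392) and Rictor (-0.61 ± 0.17, edgeR adjusted p = 0.0491) were lower (SE). Each of the 5 lost its call without any 1 of KO cohort WT 1, KO cohort WT 2, RH cohort WT 1 and RH cohort WT 2 (edgeR adjusted p = 0.057 to 0.22), and when RH cohort WT 1 was placed in KO cohort WT, as its batch tag says. Cohort and any batch cannot be told apart here. The members were compared with their own cohort's wild type for this reason, and with all 6 wild type libraries as 1 group Inppl1 stayed at 1.55 in KO, 0.44 in RH HET and 0.59 in RH HOMO.

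Summed markers of other cells also differed in level between genotypes. Summed erythroid markers were at 6.73 to 7.77 CPM in KO, against 3.07 to 4.87 CPM in KO cohort WT, dendritic cell markers at 35.3 to 39.1 CPM in KO, against 47 to 58 CPM in KO cohort WT, and plasma cell markers at 438 to 452 CPM in KO, against 512 to 548 CPM in KO cohort WT. Summed NK cell markers were at 0.354 to 0.401 CPM in KO, against 0.621 to 1.03 CPM in KO cohort WT. Erythroid markers were also higher in RH HET, at 4.18 to 5.59 CPM, and in RH HOMO, at 4.97 to 8.68 CPM, than in RH cohort WT, at 3.39 to 3.88 CPM, and T cell markers were at 1.56 to 2.92 CPM in RH HOMO, against 0.783 to 1.52 CPM in RH cohort WT. Granulocyte and mast cell markers reached at most 0.53 CPM in any library, with 2 of 6 at 0 throughout. The part of these markers in the Inppl1 and Inpp5d differences was not tested.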

How the data were processed

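RNA was extracted from sorted germinal centre B cells and libraries were made with the TruSeq RNA v2 kit, which does not mark strand, per the labels' protocols. The deposited table holds raw read counts, whole numbers without normalization, for 16 libraries and 48593 gene symbols. Of tools, CASAVA 1.8, featureCounts and HISAT2 are named with mm10 in the submitters' processing notes. The strand setting, the handling of reads with several matches and the other versions are not given in those notes. Without strand, a gene's reads cannot be separated from those of an overlapping or antisense gene.

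Groups were read from the sample titles, since the genotype stands in a tag of another name. Replicate numbers follow accession order and only name a library. Replicate pairs differed beyond sampling noise (chi-square per degree of freedom 16.8 to 216), so none was counted as a repeat. The 6 members, the gene lists and the tests were chosen with earlier results of these data known.

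The test was the quasi-likelihood test of edgeR 4.0.16 in R 4.3.3 (filterByExpr, TMM scaling, 5 group means over 16 libraries, 11 residual degrees of freedom). Benjamini-Hochberg adjustment ran over 16606 tested genes, and called means an adjusted p under 0.05. The SE is the log2 difference divided by the square root of F. CPM uses TMM-scaled totals, and log2 CPM a prior count of 2. The test was checked on simulated counts. Positions and exon lengths are from GENCODE M21 on GRCm38, the assembly of mm10, which held 48069 of the 48593 symbols, and promoter sequences are from RefSeq on GRCm38.p6, where all 6 members matched by symbol.

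Named genes are the 6 members, Crebbp, the called pathway genes (up to 4 per list, or the gene with the smallest p where none was called), called neighbours within 500 kb of a member, and the genes most like or opposite to Inppl1 (5 each) and most like Inpp5d (3), of which 1 gene like Inppl1 is not reported here. Folr2 and Phox2a were added after their values were seen. Alternatives were DESeq2 1.42.0, its size factors, limma-voom with quality weights (limma 3.58.1), other count filters, other sets of libraries and other lengths. Correlations without RH HOMO 2 were added after seeing the data.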

Additional observations from a re-analysis of the deposited data

Results flagged for a closer look

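Of 57 named genes, 6 had 1 RH HET library far from the other 3 by Dixon's criterion (the gap to the nearest library over the range of the group), and chance alone gives about 1 in 20 such groups. Inppl1 was at 28.54 CPM in RH HET 4 and at 37.3 to 37.98 CPM in the others, so 3 heterozygous libraries were close together and the fourth lay beside the wild type. Without RH HET 4 the RH HET difference of Inppl1 was 0.50 on the log2 scale.

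Of the others, Pik3r3, a regulatory subunit of PI3-kinase, was at 5.697 CPM in RH HET 3 and at 4.668 to 4.749 CPM in the others. In RH HET 2, Pip4p1, a 4-phosphatase of PI(4,5)P2, was at 86.59 CPM with the others at 69.25 to 71.89 CPM. Pik3ca, the catalytic subunit alpha, was at 107.3 CPM in RH HET 2 with the others at 125 to 126.2 CPM. Lgmn, one of the genes most opposite to Inppl1, was at 257.2 CPM in RH HET 1 with the others at 217.6 to 223.8 CPM. Ralgds, one of those most like Inpp5d, was at 87.07 CPM in RH HET 4 with the others at 83.79 to 83.9 CPM. The cause was not tested for any of these.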

How the results depend on the processing

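No paired analysis was possible because the replicate numbers only follow accession order. The log2 difference of Inppl1 without 1 library was 1.48 to 1.72 in KO, 0.35 to 0.50 in RH HET and 0.45 to 0.69 in RH HOMO.

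Members called in RH HOMO numbered 2 by DESeq2 and with all 6 wild type libraries as 1 control, 3 by limma-voom, 1 with no count filter, 1 without RH HOMO 2 and RH cohort WT 1 (the 2 libraries), and 0 to 1 without 1 library. Limma-voom called 1 member between the wild types.

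Genes called were 554 by DESeq2, 944 by limma-voom, 699 in the compared libraries alone and 461 without the 2 libraries for KO. For RH HET they were 50, 244, 0 and 6, with 11 against all wild types, 1 with the conflicting library moved and 19 unfiltered. For RH HOMO they were 654 and 1120, 0 in the compared libraries alone, 657 against all wild types and 102 with the library moved. For RH HOMO minus RH HET they were 131 and 89, 2 alone, 2 without the 2 libraries and 63 unfiltered. Between wild types they were 2104, 4357, 1854 alone, 1 with the library moved and 1406 unfiltered. Without 1 library the ranges were 38 without KO cohort WT 2 to 382 without RH HOMO 2 for KO, 0 to 7 for RH HET, 115 without RH cohort WT 2 to 281 for RH HOMO, 0 to 1 for RH HOMO minus RH HET, and 3 without KO cohort WT 2 to 2688 without RH HOMO 2 between wild types.

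Pathway genes called were 7 by DESeq2 and 10 by limma-voom in KO, 14 in the compared libraries alone and 4 each against all wild types, with the library moved and without the 2 libraries. In RH HET they were 1 by DESeq2, with a 1 CPM filter, against all wild types and without the 2 libraries, and 5 by limma-voom. In RH HOMO they were 6, 10, 0 alone, 6 against all wild types, 1 with the library moved and 5 unfiltered. RH HOMO minus RH HET gave 2 by DESeq2 and 2 by limma-voom. Between wild types they were 16, 42, 18 alone, 8 with a 1 CPM filter, 0 with the library moved, 16 unfiltered and 12 without the 2 libraries. Without 1 library they were 0 to 2 in KO, 0 to 1 in RH HET, 2 to 4 in RH HOMO and 0 to 20 between wild types.

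Per kb of the longest transcript, levels moved to 78.7 (Inpp5d), 23.5 (Inpp5k), 4.38 (Inpp4a), 2.76 (Inpp4b) and 1.96 (Inpp5a).

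The sign of these log2 differences turned. Against all wild types Crebbp was 0.0440 in KO and -0.204 in RH HOMO, and in RH HET Pikfyve was -0.0503, Plekha1 -0.0886 and Synj2 -0.0228. Crebbp in RH HOMO was -0.0022 with a 1 CPM filter and -0.0592 with the library moved. For RH HOMO minus RH HET, Inpp4a was -0.0058 with a 1 CPM filter, -0.0038 with the library moved, -0.0001 by DESeq2 and by its size factors, -0.0649 by limma-voom, -0.0020 unfiltered and -0.0024 without immunoglobulin and T cell receptor genes. Inpp4b was 0.0261 and Inpp5k 0.0085 by limma-voom, and 0.273 and 0.0235 without the 2 libraries. Between wild types Inpp5d was 0.0142 and Inpp5k 0.0591 with the library moved, and Inpp5k 0.0284 without the 2 libraries. Without 1 library the ranges were -0.160 to 0.237 (Crebbp, RH HOMO), -0.0741 to 0.0438 (Inpp4a), -0.381 to 0.270 (Inpp4b), -0.424 to 0.0866 (Inpp5a) and -0.0619 to 0.0228 (Inpp5k) for RH HOMO minus RH HET, and -0.0560 to 0.0054 (Inpp5d) and -0.0789 to 0.0284 (Inpp5k) between wild types. Signs of members against wild type turned as well. Against all wild types Inpp4b was 0.0133 in KO and Inpp4a -0.1589 in RH HET. Without the 2 libraries Inpp4a was -0.0929 in RH HET and -0.0736 in RH HOMO. Without 1 library Inpp4a ranged from -0.0926 to 0.1475 in RH HET and from -0.0943 to 0.1436 in RH HOMO. Inpp4b ranged from -0.0270 to 0.6787 in RH HOMO, and Inpp5a from -0.2131 to 0.0489 in KO. Where a call or sign changed the cause was not tested.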
